A study of Mus musculus with 35 samples.

Results

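Sox1, Sox21, Pax6, Pax3, Pax7, Nes, Zic1, Irx3, Meis1 and Meis2 are 10 genes of early neural progenitors, and their RNA levels were followed across Tet3 genotypes and expression vectors. They were taken by gene symbol from the normalized count tables of 3 RNA-seq experiments, where they are 10 of 17948 genes (day 3), 10 of 18091 (Dnmt1 experiment) and 10 of 17705 (Tet3-CD experiment). All samples are neuroectoderm (NE) cells made from V6.5 mouse embryonic stem cells (ESCs), a male line of mixed 129/C57BL/6 background, by withdrawal of leukemia inhibitory factor (LIF) and treatment with 1 µM retinoic acid (RA), for 72 h per the labels. Cells were wildtype (Tet3+/+), homozygous for substitutions in the iron-binding site that TET3 needs to oxidize methylated cytosine (Tet3m/m), or without an exon of Tet3 on both alleles (Tet3-/-).

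The day 3 experiment held 3 Tet3+/+, 3 Tet3m/m and 2 Tet3-/- samples, each an independent clone per the study's methods. The Dnmt1 experiment held 2 samples for each of the 3 genotypes with a myc-Dnmt1 vector and with its empty vector (EV), transfected when LIF was withdrawn and selected with blasticidin over the last day. The Tet3-CD experiment held 1 sample for each genotype with a tdTomato vector carrying the wildtype TET3 catalytic domain (Tet3-CD) and with its EV, transfected on day 2 and collected 2 days later per the study's methods. Whether samples of the transfection experiments came from separate clones is not given in the sources used here, so p-values there measure only the spread between these samples, which may be technical. In bulk RNA, fewer cells of a type and less RNA per cell cannot be told apart.

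Sox and Pax proteins are DNA-binding factors that act early in the neural plate, SoxB1 factors such as Sox1 holding cells in a progenitor state and Pax factors dividing the neural tube along its dorsal to ventral axis. Zic and Iroquois (Irx) factors pattern the same tissue, and Meis factors are TALE homeodomain partners of Pbx and Hox proteins that RA induces. Nes encodes nestin, an intermediate filament protein used as a marker of neural progenitors.

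TET3 acts on cytosines that stand before a guanine (CpG), so the start regions of 4 genes to which the comparisons below return are shown with each CpG in capitals, 5′ to 3′ on the gene's strand. RefSeq's table for GRCm38.p6 gave 300-base windows for 9 of the 10 genes, all but Pax3 (10 windows, 2 of them of Pax6). The windows shown are those of Zic1 (chr9:91365719-91366018, minus strand), Pax7 (chr4:139832919-139833218, minus strand), Sox1 (chr8:12395269-12395568, plus strand) and Nes (chr3:87970843-87971142, plus strand).
Zic1: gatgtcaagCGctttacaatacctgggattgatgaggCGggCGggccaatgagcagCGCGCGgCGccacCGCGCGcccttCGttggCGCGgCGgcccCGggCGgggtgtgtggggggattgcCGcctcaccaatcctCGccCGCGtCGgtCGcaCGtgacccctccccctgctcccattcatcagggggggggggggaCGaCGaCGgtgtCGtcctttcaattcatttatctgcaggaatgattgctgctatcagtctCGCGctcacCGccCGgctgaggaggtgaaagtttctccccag
Pax7: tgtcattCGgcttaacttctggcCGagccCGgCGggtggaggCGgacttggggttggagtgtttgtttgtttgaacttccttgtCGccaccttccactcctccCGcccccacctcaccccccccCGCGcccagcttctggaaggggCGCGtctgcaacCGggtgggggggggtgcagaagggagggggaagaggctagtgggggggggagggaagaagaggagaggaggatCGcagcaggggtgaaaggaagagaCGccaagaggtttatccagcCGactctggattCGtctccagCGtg
Sox1: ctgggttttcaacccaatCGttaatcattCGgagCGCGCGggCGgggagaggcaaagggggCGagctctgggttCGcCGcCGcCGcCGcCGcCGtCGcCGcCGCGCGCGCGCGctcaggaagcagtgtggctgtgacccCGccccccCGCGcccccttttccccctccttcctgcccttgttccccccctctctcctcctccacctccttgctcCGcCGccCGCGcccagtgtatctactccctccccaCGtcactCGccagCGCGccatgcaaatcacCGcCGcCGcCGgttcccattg
Nes: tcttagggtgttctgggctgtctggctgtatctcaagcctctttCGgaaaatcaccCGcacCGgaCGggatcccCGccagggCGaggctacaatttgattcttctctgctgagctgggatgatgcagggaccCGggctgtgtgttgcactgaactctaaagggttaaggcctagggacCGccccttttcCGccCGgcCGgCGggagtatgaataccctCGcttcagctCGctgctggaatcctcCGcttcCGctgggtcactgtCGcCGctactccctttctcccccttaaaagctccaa

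The Sox1 window held 37 CpG and the Zic1 window 31, more than 94.4% and 89.4% of all 32851 mouse promoter windows, in which the median was 7. Nes and Pax7 held 18 and 17, and the remaining windows held 13 (Meis2) to 22 (Sox21). Searched on both strands, AGGTCA, a core letter string of RA receptor sites, was in none of the 10 windows and in 16.3% of all windows. AGTTCA, a variant of it, occurred once each in the Nes and Pax7 windows (14.0% of all windows), TGACAG, the core of Meis sites, once in a Pax6 window (19.2%), and TATAAA once in the Meis2 window (13.6%). Letters of different motifs can overlap, and a match is no proof of a bound site. The expression tables hold no methylation values, so methylation of these windows was not analysed here.

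Per sample, 36594650 to 47710548 reads stood behind the day 3 values, 31155842 to 50845950 behind those of the Dnmt1 experiment and 33475041 to 37707719 behind those of the Tet3-CD experiment. A normalized count is the number of reads assigned to a gene divided by the sample's DESeq2 size factor. Tet3 itself had normalized counts of 4613, 4576 and 5020.0 in day 3 Tet3+/+ samples, 2666, 2277 and 1945 in Tet3m/m and 1796 and 2329 in Tet3-/-. In the Dnmt1 experiment with EV, a table normalized separately, it stood at 2520.3 and 2571 in Tet3-/- against 2957 and 3075 in Tet3+/+, and counts per gene show neither the substitutions nor the missing exon. Other markers of neural progenitors were present in day 3 Tet3+/+ NE cells (Sox2 at 3203 to 4693, Msi1 at 7155 to 8451 and Vim at 14371 to 30885). Sox2 is also a pluripotency factor, so its level alone does not mark neural progenitors. Fabp7 in Tet3+/+ cells was low on day 3 (40.5 to 83.1) and at 2.32 and 3.95 with EV in the Dnmt1 experiment.

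Compared per kilobase of transcript, the levels of the 10 genes in day 3 Tet3+/+ cells ran from Meis2, with a mean of 3106 normalized counts per kilobase (n = 3), to Pax7 with 45.4. Between them stood Nes (1580.0), Meis1 (1360.0), Irx3 (974), Pax6 (614), Sox1 (406), Zic1 (329), Pax3 (254) and Sox21 (138), in the same unit. Samples of neighbours in that order overlapped between Nes and Meis1 and for each pair from Pax6 down to Sox21. They did not overlap between Meis2 and Nes, Meis1 and Irx3, Irx3 and Pax6, or Sox21 and Pax7. With the longest annotated transcript in place of the median one, Meis1 and Irx3 exchanged places, as did Pax6 and Sox1. In day 3 Tet3-/- cells Nes stood first with 3382 normalized counts per kilobase, overlapping Meis2 with 3292. With EV in the Dnmt1 experiment, Tet3m/m cells had Nes sixth, at 156 normalized counts per kilobase, below Sox1 (187) and Sox21 (169.7).

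On day 3, Tet3m/m NE cells had lower RNA of the dorsal factors Pax7, Pax3 and Zic1 and of Pax6 than Tet3+/+ cells, while Sox1, Sox21, Irx3, Nes and the Meis genes passed no test. This comparison asks how cells with catalytically inactive TET3 differ from wildtype, and the Tet3m/m samples also had less Tet3 RNA, as given above, so the loss of activity and the lower level cannot be told apart. A gene is called when limma's adjusted p (Benjamini-Hochberg over all genes tested) is under 0.05 and its fold change above 1.5, and 4 of the 10 genes were called, all lower, where 10.2% of all 17915 genes tested were called in either direction (5.06% higher, 5.19% lower). Across the 10 genes the median log2 fold change was -0.65, and over all genes it was 0.00.

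**Figure D1:**
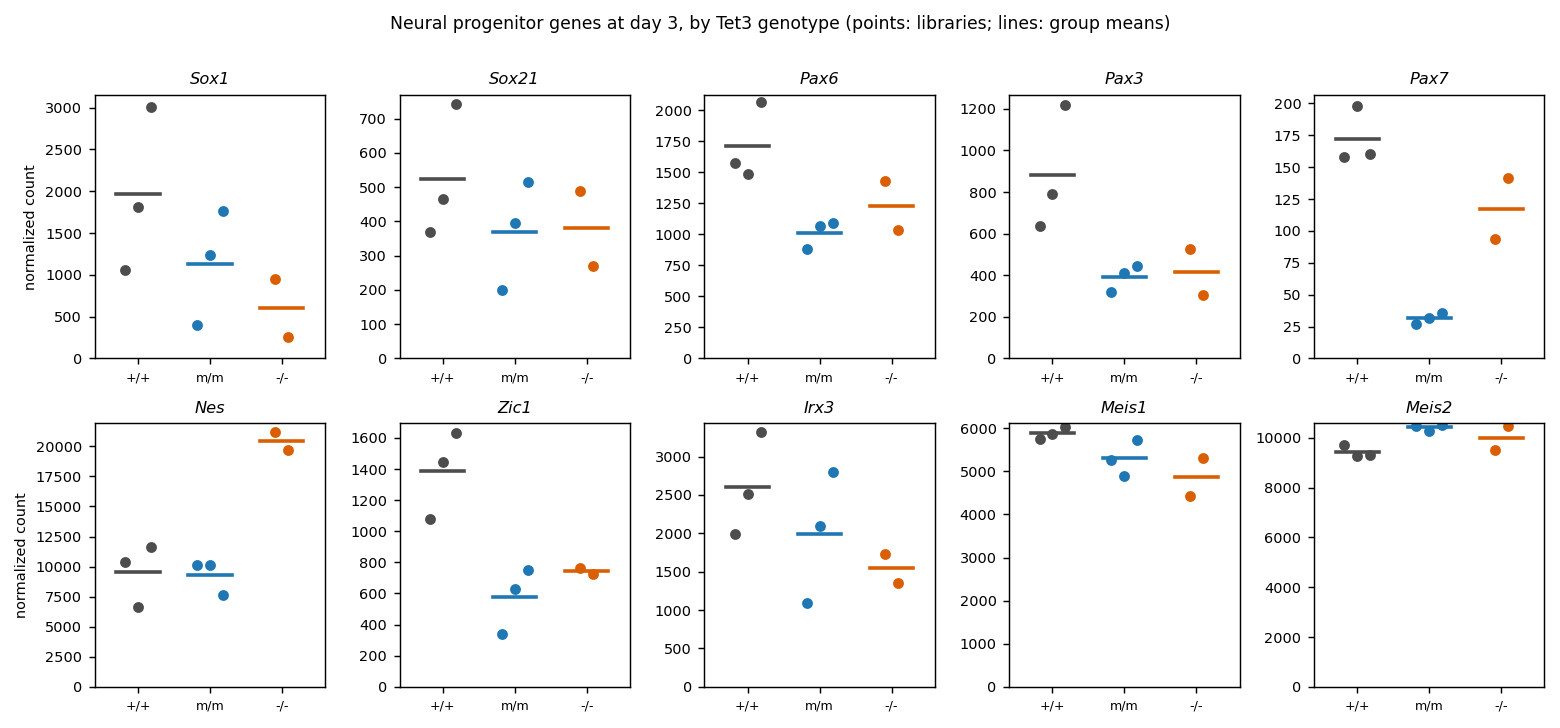
Normalized counts of the 10 genes in day 3 NE cells, 1 panel per gene with its own linear axis from 0. Each point is a sample (3 Tet3+/+, 3 Tet3m/m, 2 Tet3-/-) and each short line the group mean. The 3 Tet3m/m points of Pax7 lie between 26.6 and 35.6, below all Tet3+/+ points, and both Tet3-/- points of Nes lie above all others.

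Pax7, a paired-box factor of the dorsal neural tube and neural crest, had 158, 198 and 160.1 normalized counts in the Tet3+/+ clones and 26.6, 32.0 and 35.6 in the Tet3m/m clones. The groups lay far apart, and Pax7 fell by 2.42 on the log2 scale (SE 0.27, limma adjusted p = 0.000401). Its close relative Pax3 had 637, 789 and 1221 normalized counts in Tet3+/+ and 319.6, 411 and 446 in Tet3m/m cells. No Tet3m/m value reached the lowest Tet3+/+ value, and Pax3 fell by 1.13 (SE 0.26, limma adjusted p = 0.0174). Pax6, which marks radial progenitors of forebrain and spinal cord, had 1576, 1484 and 2063 normalized counts in Tet3+/+ and 879.8, 1066 and 1089.6 in Tet3m/m cells. It fell by 0.75 (SE 0.16, limma adjusted p = 0.0131), again without overlap. Pax6 and Pax3 lost their calls without Tet3+/+ replicate 3 (log2 fold changes of -0.60 and -0.87, limma adjusted p = 0.0587 and 0.0697), and Pax3 also without Tet3m/m replicate 1 (-0.99, limma adjusted p = 0.0531).

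Zic1, a zinc finger factor of the dorsal neural tube, had 1080.4, 1448 and 1629 normalized counts in Tet3+/+ and 339, 629.8 and 754 in Tet3m/m samples. The groups did not overlap, and Zic1 fell by 1.33 on the log2 scale (SE 0.26, limma adjusted p = 0.00799). Sox1, among the earliest markers of neural fate, varied most between clones of a genotype. It had 1063, 1810.1 and 3013 normalized counts in Tet3+/+ and 396, 1242 and 1765 in Tet3m/m samples, so that the highest sample exceeded the lowest 2.83-fold in Tet3+/+ and 4.45-fold in Tet3m/m. The groups overlapped, and a log2 fold change of -0.91 (SE 0.59) did not pass the test (limma adjusted p = 0.349). Sox21, a SoxB2 factor that opposes SoxB1 proteins, had 369, 464 and 741 against 199, 395 and 514 normalized counts, a log2 fold change of -0.55 (SE 0.37, limma adjusted p = 0.363). Irx3, a homeobox factor of the intermediate neural tube, had 1991, 2517 and 3320.0 against 1095, 2101 and 2793 normalized counts, and its log2 fold change of -0.46 (SE 0.30) did not pass either (limma adjusted p = 0.346).

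Nes had 10354, 6667 and 11618 normalized counts in Tet3+/+ and 10131, 10137 and 7604 in Tet3m/m samples. The Tet3m/m samples lay within the range of the Tet3+/+ samples, and the log2 fold change was -0.01 (95% interval -0.43 to 0.40). Meis1 was tightly grouped at 5756, 5867 and 6031 against 5275, 4901 and 5721 normalized counts, with a log2 fold change of -0.15 (95% interval -0.37 to 0.06). Meis2 had 9709, 9282 and 9302 against 10498, 10286 and 10522, a log2 fold change of 0.15 (95% interval -0.03 to 0.32). In all, 5 of the 10 genes had every Tet3m/m sample below every Tet3+/+ sample (Pax6, Pax3, Pax7, Zic1 and Meis1), where 18.3% of all genes did, and Meis2 had every sample above, where 18.4% did.

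Tet3-/- NE cells of day 3 had higher Nes than Tet3+/+ cells, while 8 of the 10 genes had lower means and none of these was called. Nes had 21181 and 19689 normalized counts in the 2 Tet3-/- samples, above every Tet3+/+ and Tet3m/m sample, and it rose by 1.14 on the log2 scale (SE 0.21, limma adjusted p = 0.0493). That p lay at the threshold, 0.642% of all genes were called (0.458% higher, 0.184% lower), and the call was lost without any 1 of the 3 Tet3+/+ replicates (1.21, 0.90 and 1.30, limma adjusted p = 0.0781, 0.145 and 0.0932 without replicates 1, 2 and 3), without either Tet3-/- replicate (1.08 and 1.19, limma adjusted p = 0.125 and 0.111) and without Tet3m/m replicate 2 (1.14, limma adjusted p = 0.0929). Over all genes the count of calls, 115 here, ran from 0 to 706 when 1 sample was left out. edgeR on the recovered reads gave 1.10 with an adjusted p of 0.0505, and DESeq2 gave 1.10 with an adjusted p of 6.9e-05.

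Sox1 differed between the 2 Tet3-/- clones, at 955 and 253 normalized counts, and its log2 fold change against Tet3+/+ was -1.87 (SE 0.66, limma adjusted p = 0.155). Pax3 had 525 and 305 normalized counts in Tet3-/- samples (-1.08, SE 0.29, limma adjusted p = 0.0847), and Zic1 had 762 and 725 (-0.88, SE 0.29, limma adjusted p = 0.134). Both lay below all Tet3+/+ samples, and DESeq2 called both (adjusted p = 0.00776 and 0.0249), whereas limma called Zic1 only in a fit without Tet3m/m replicate 1 (limma adjusted p = 0.0228) or without the Tet3m/m group (limma adjusted p = 0.0259). Pax7 stood at 93.3 and 141 normalized counts, between the other genotypes (-0.57 against Tet3+/+, SE 0.31, limma adjusted p = 0.321). Pax6 (1426 and 1032), Sox21 (489.9 and 269.8), Irx3 (1735 and 1358) and Meis1 (4419.9 and 5301) had log2 fold changes from -0.73 to -0.28, and Meis2 (9526 and 10469) one of 0.08. Counted by sample, 7 genes had both Tet3-/- samples below all Tet3+/+ samples (20.4% of all genes) and 1, Nes, had both above (20.8%). The median log2 fold change of the 10 genes was -0.52 and that of all genes -0.01. At an unadjusted limma p under 0.05 stood 7 of the 10 genes, a count given without the share of all genes at that cutoff.

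Set against Tet3m/m cells, Tet3-/- cells had higher Pax7 (log2 fold change 1.85, SE 0.31, limma adjusted p = 0.00424) and higher Nes (1.15, SE 0.21, limma adjusted p = 0.00672), and 9.73% of all genes were called (5.41% higher, 4.33% lower). For the other 8 genes the log2 fold change between the mutant genotypes lay between -0.96 (Sox1) and 0.45 (Zic1), and none passed.

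Among related genes from fixed lists, 2 of 4 Zic genes fell in day 3 Tet3m/m cells, Zic2 by 1.15 (limma adjusted p = 0.0423) and Zic5 by 1.30 (0.014). Of 13 other Sox genes tested, Sox3 and the neuronal factor Sox11 fell, Sox3 by 1.24 and Sox11 by 1.00, and Sox10 and Sox18 rose (1.30 and 1.76). Of 5 other Pax genes Pax5 fell (-2.38). Of 5 other Irx genes and 7 TALE genes limma called 0, with 0 and 2 at an unadjusted p under 0.05. Of 10 further progenitor genes 4 fell, namely the Notch target Hes5 (-4.81), Fabp7 (-2.50), the glial glutamate transporter Slc1a3 (-1.13) and the RNA-binding protein gene Msi1 (-0.73). Regional factors of the neural tube went both ways, 5 up and 6 down of 26 tested, with the largest falls in Dbx1 (-5.22) and Pou3f3 (-3.21) and the largest rises in Otx1 (2.81) and Nkx2-2 (2.64). Neuron markers fell in 7 of 9 cases and rose in 1 (median -1.60), 4 of 12 endoderm markers and 1 of 12 pluripotency markers rose. Summed over 12 pluripotency markers, none of them at 0, the samples had 9005 to 14493 normalized counts in Tet3+/+, 11954 to 30553 in Tet3m/m and 7206 to 13067 in Tet3-/-. In day 3 Tet3-/- cells limma called 0 of the Sox, Pax, Zic, Irx, TALE and progenitor relatives (5, 0, 3, 2, 1 and 5 at an unadjusted p under 0.05), and the regional factor Msx1 fell (-1.21). The part of these other cell states in the values of the 10 genes was not tested.

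Sox1 and Irx3 share chromosome 8, and in each sample the median log2 ratio of that chromosome's genes to the Tet3+/+ mean was taken as well. It ran from -0.12 to 0.20 in day 3 Tet3+/+ samples and from -0.38 to -0.30 in Tet3m/m samples, and it was 0.17 and -0.32 in the Tet3-/- samples. With EV in the Dnmt1 experiment it was -0.44 in both Tet3m/m samples and -0.37 and -0.36 in Tet3-/- samples. In the EV libraries of the Tet3-CD experiment it was -0.081 in Tet3m/m and 0.094 in Tet3-/- (-0.11 and 0.13 with Tet3-CD). For chromosome 14, which holds Sox21, the day 3 median ran from -0.14 to 0.19 in Tet3+/+ and from -0.14 to -0.065 in Tet3m/m samples. It was -0.12 in both Tet3-/- samples. With EV in the Dnmt1 experiment it lay between -0.034 and -0.0028 in the mutant samples. Subtracting each chromosome's median changed the number of called genes among the 10 in no comparison. The part of chromosome 8 in the Sox1 and Irx3 values, and of chromosome 14 in those of Sox21, was not tested further.

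In the Dnmt1 experiment, EV-carrying Tet3m/m cells differed from EV-carrying Tet3+/+ cells in all 10 genes, 9 lower and Sox21 higher, where 21.2% of all 18055 genes tested were called (10.3% higher, 10.9% lower). The median log2 fold change of the 10 genes was -1.46, and that of all genes was 0.01. Zic1 had 394 and 480.1 normalized counts in Tet3+/+ and 64.0 and 70.3 in Tet3m/m samples, and it fell by 2.68 on the log2 scale (SE 0.14, limma adjusted p = 8.41e-13). Nes had 4531 and 4370.5 against 897 and 986 normalized counts and fell by 2.24 (SE 0.06, limma adjusted p = 3.96e-17), unlike on day 3. The replicates of each group lay close together and the groups far apart in both genes.

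The Pax genes fell together in EV-carrying Tet3m/m cells. Pax6 had 1041 and 995 against 231 and 309 normalized counts (-1.93, SE 0.12), Pax3 had 381 and 401 against 96.9 and 109 (-1.92, SE 0.14), and Pax7 had 55.3 and 41.7 against 18.3 and 15.6 (-1.45, SE 0.35). Their limma adjusted p-values were 2.04e-11, 2.19e-10 and 0.0018. Sox1 fell by 1.42 (2254 and 2592 against 881 and 929 normalized counts, limma adjusted p = 4.32e-10), whereas Sox21 rose by 1.12 (237 and 369.9 against 621 and 668, limma adjusted p = 1.24e-05). Irx3 fell by 1.07 (2879.6 and 3284 against 1458 and 1479 normalized counts, limma adjusted p = 2.18e-09). Both Meis genes, whose log2 fold changes on day 3 had been -0.15 and 0.15, fell here. Meis1 had 5015 and 4884 against 2493 and 2439 normalized counts (fell by 1.00, limma adjusted p = 1.27e-12), and Meis2 had 8051 and 7987 against 3088 and 2713 (fell by 1.47, limma adjusted p = 2.11e-15).

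**Figure D2:**
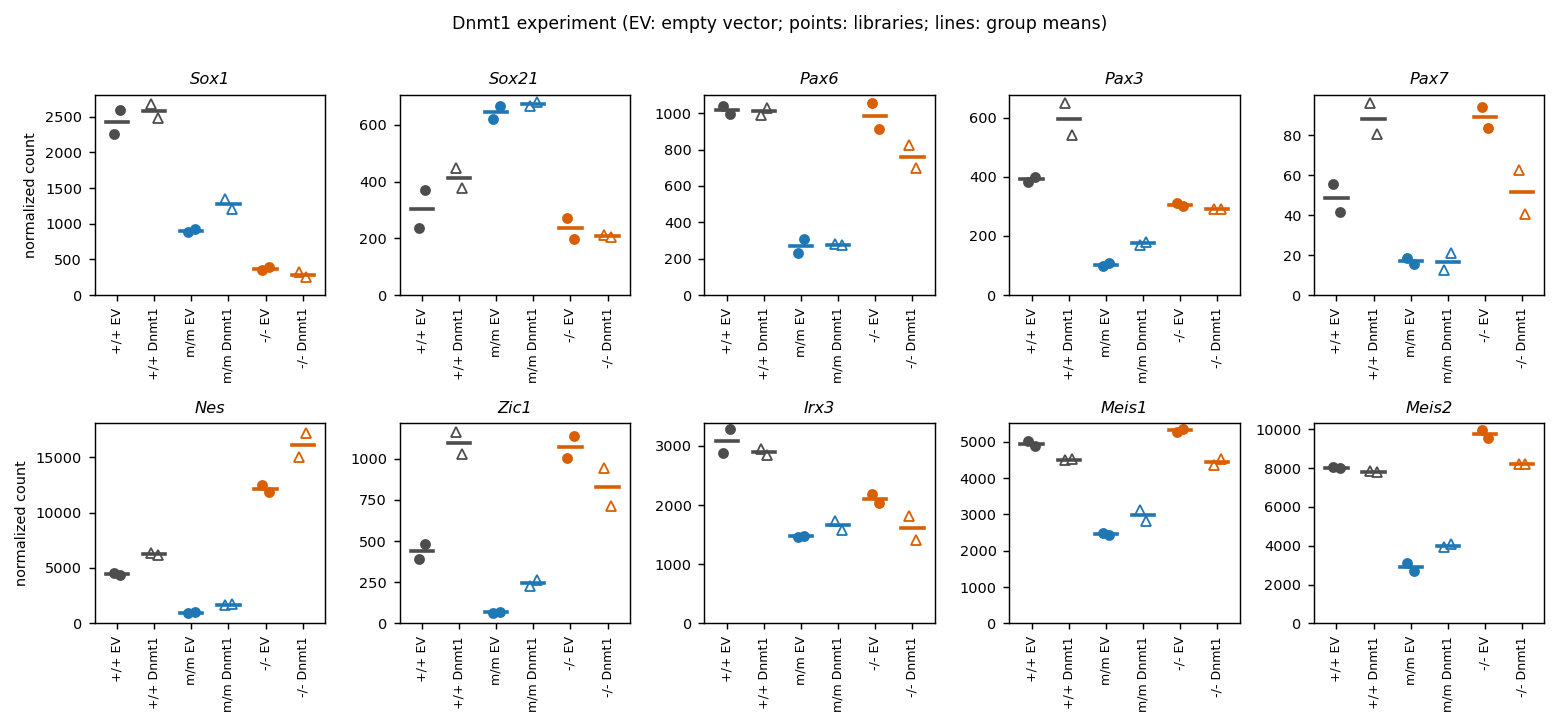
Normalized counts of the 10 genes in the Dnmt1 experiment, 1 panel per gene with its own linear axis from 0, for the 3 genotypes with empty vector and with the Dnmt1 vector. Marks are the 2 samples of a group (filled circles for empty vector, open triangles for Dnmt1) and short lines their mean. Zic1 is lowest in Tet3m/m cells with empty vector, at 64.0 and 70.3.

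Tet3-/- cells with EV had a different pattern, with Sox1 lower and Nes, Zic1 and Pax7 higher than in Tet3+/+ cells with EV, and 24.9% of all genes were called (11.0% higher, 13.9% lower). Sox1 had 349 and 390.4 normalized counts and fell by 2.71 (SE 0.11, limma adjusted p = 1.66e-14). Nes had 12451 and 11862 and rose by 1.45 (SE 0.06, limma adjusted p = 8.33e-14), and Zic1 had 1004 and 1141 and rose by 1.30 (SE 0.14, limma adjusted p = 9.56e-08). All 3 lay outside the range of the Tet3+/+ samples.

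Pax7, with 94.2 and 83.6 normalized counts in Tet3-/- EV cells, rose by 0.87 (SE 0.35, limma adjusted p = 0.0433). This call was lost without 1 of several samples, with limma adjusted p = 0.0548 and 0.228 without EV Tet3+/+ replicate a or b, 0.167 and 0.0901 without EV Tet3-/- replicate 1 or 2, and 0.0550 and 0.0535 without Dnmt1 vector Tet3+/+ replicate 1 or 2. Irx3 (2178 and 2035 normalized counts), Meis2 (9939 and 9561) and Pax3 (310.2 and 302) passed the adjusted p but not the fold threshold, at log2 fold changes of -0.55, 0.28 and -0.35 (limma adjusted p = 2.63e-05, 0.00013 and 0.0374). Irx3 passed both without EV Tet3+/+ replicate a (-0.64) or without EV Tet3-/- replicate 1 (-0.60). Pax6 (1059 and 913 normalized counts), Meis1 (5275 and 5359.8) and Sox21 (272 and 199) did not pass, with log2 fold changes of -0.05, 0.10 and -0.35. Sox21 passed without EV Tet3+/+ replicate a, at -0.67 (limma adjusted p = 0.00367). The median of the 10 genes was 0.03.

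Between the mutant genotypes with EV, 9 of the 10 genes were called, 7 higher and 2 lower in Tet3-/-, where 39.6% of all genes were (18.9% higher, 20.6% lower). Zic1 was higher by 3.98 on the log2 scale (SE 0.14), Nes by 3.69 (SE 0.06) and Pax7 by 2.33 (SE 0.35), whereas Sox1 was lower (-1.29, SE 0.11) and so was Sox21 (-1.47, SE 0.17). Irx3, at 0.52, passed the adjusted p (limma, 2.93e-05) but not the fold threshold.

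Marker sums in the same samples also differed between genotypes. Over 12 pluripotency markers, EV-carrying samples had 47111 and 47352 normalized counts in Tet3+/+, 119817 and 121738 in Tet3m/m and 7149 and 7848 in Tet3-/-. Over 12 endoderm markers they had 147753 and 156044, 383420.1 and 434545, and 39483 and 41093 in the same order. No marker of either list was at 0. In Tet3m/m cells 11 pluripotency markers rose and 1 fell, and 11 endoderm markers rose. In Tet3-/- cells 11 pluripotency markers fell, and of the endoderm markers 10 fell and 1 rose. The part of these cell states in the values of the 10 genes was not tested, and genotype and state cannot be told apart in these samples.

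Relatives of the 10 genes also divided by genotype in EV-carrying cells. Zic4 fell in Tet3m/m (-3.55) and rose in Tet3-/- (1.80). Zic4 shares 60 exonic bases with Zic1 on the opposite strand in GENCODE's annotation, and the strand setting of the counting is not given in the sources used here, so their reads could be mixed. The same holds for Irx3 with Irx3os (124 shared bases) and Sox21 with Gm4675 (713), while Meis1 shares 896 bases with Gm16140 on the opposite strand and 1029 with Gm37818 on its own. Of 13 Sox genes tested, 3 rose and 5 fell in Tet3m/m cells, and 2 rose and 7 fell in Tet3-/- cells, among them the pluripotency factor Sox2 (1.23 and -1.43). Of 4 Irx genes tested Irx4 and Irx5 fell in Tet3m/m cells (-1.93 and -1.73), and Irx1 rose (0.69). Of the TALE genes Meis3 (-1.07) and Pknox2 (-1.01) fell in Tet3m/m cells, and Meis3 rose in Tet3-/- cells (0.70). Of 10 further progenitor genes 5 fell in Tet3m/m cells, with the largest change in Hes3 (-5.39) and others in the cadherin gene Cdh2 (-1.98) and the filament gene Vim (-1.13), and Vim rose in Tet3-/- cells (0.99). Regional factors went both ways, 11 up and 7 down in Tet3m/m cells with Otx2 (2.94) and Olig2 (2.86) furthest up and Dbx1 (-2.85) and Emx2 (-2.83) furthest down, and 7 up and 11 down in Tet3-/- cells, among them Otx2 (fell by 2.86), Rax (fell by 2.82) and Pou3f2 (rose by 2.38), of 26 tested. In the Pax list (4 tested) limma called 0 genes in Tet3m/m cells (1 at an unadjusted p under 0.05), and in Tet3-/- cells Pax2 rose (0.87) while Pax8 and Pax9 fell (-1.39 and -1.86).

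**Figure D3:**
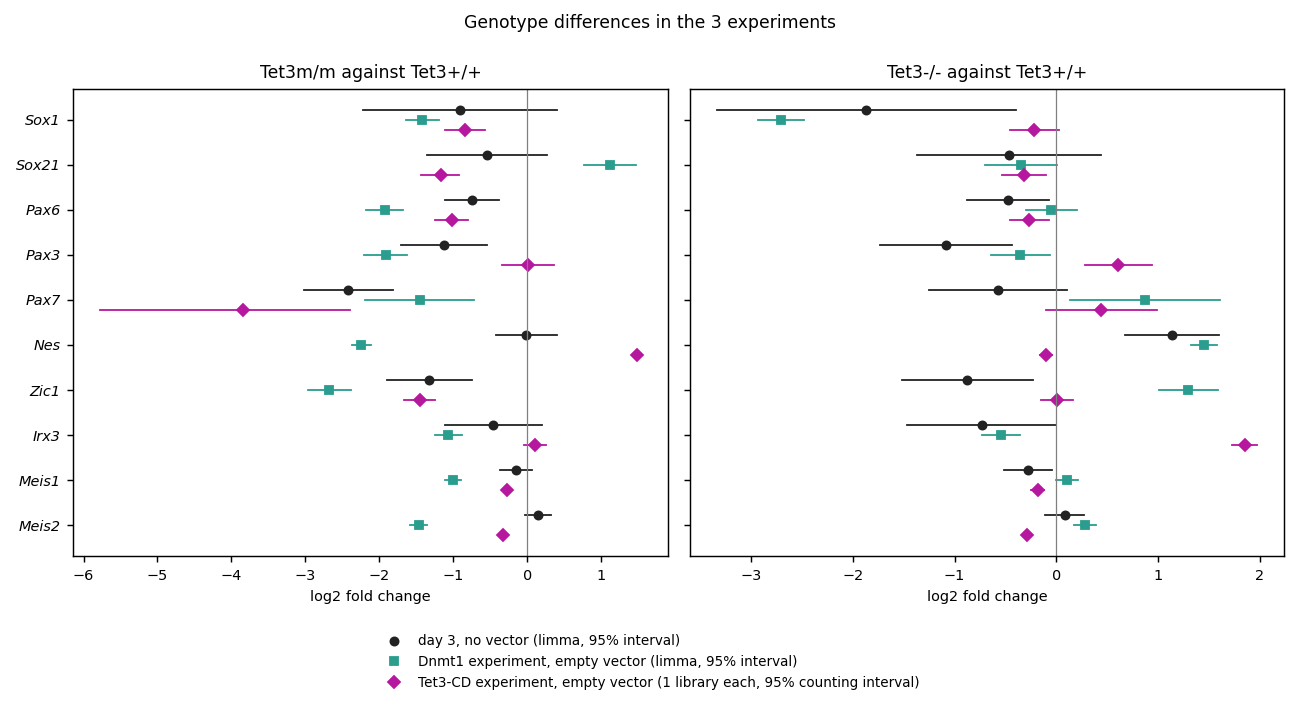
Log2 fold change of each of the 10 genes against Tet3+/+ for Tet3m/m (left) and Tet3-/- (right), from day 3 cells and from the cells with empty vector of both transfection experiments. Lines are limma's 95% intervals for the first 2 and 95% counting intervals for the last, which had 1 sample a group. Zic1 lies left of 0 in all 3 experiments for Tet3m/m (-1.33, -2.68 and -1.45), while the Tet3-/- points of Zic1 lie on both sides (-0.88, 1.30 and 0.01).

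Each experiment had its own control samples, so the direction of the difference can be set side by side over the 3 experiments. In Tet3m/m cells, 5 genes had lower means than Tet3+/+ in all 3 experiments (Sox1, Pax6, Pax7, Zic1 and Meis1) and 5 were mixed. Nes differed most between experiments, at -0.01 (day 3), -2.24 (EV, Dnmt1 experiment) and 1.49 (EV, Tet3-CD experiment). In Tet3-/- cells, 3 genes were lower in all 3 experiments (Sox1, Sox21 and Pax6) and 7 were mixed. Direction was counted whatever its size, without a share of all genes. In Tet3-/- cells Pax6 was at -0.05 with EV in the Dnmt1 experiment, where the groups overlapped. The counting interval of Sox1 in the Tet3-CD experiment spanned 0, and Sox21 was called neither on day 3 nor with EV in the Dnmt1 experiment. In Tet3m/m cells Sox1 and Meis1 were not called on day 3. The experiments differ in vector, selection, day and normalization, and these differences between experiments were not tested.

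The Dnmt1 vector asks whether more of the maintenance DNA methyltransferase shifts these genes. Reads of the Dnmt1 gene stood at 14679 and 15225 normalized counts in Tet3+/+ with EV and at 22799 and 23768 with the Dnmt1 vector. They went from 11934 and 11285 to 20245 and 23211 in Tet3m/m and from 17356 and 17554 to 33380.5 and 39854 in Tet3-/- cells. The vector's own reads and those of the cell's gene were not separated.

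In Tet3+/+ cells the Dnmt1 vector went with higher Zic1 and Pax3, 2 of the 10 genes, where 1.17% of all genes were called (0.421% higher, 0.753% lower). Zic1 went from 394 and 480.1 to 1160.5 and 1030.5 normalized counts and rose by 1.33 on the log2 scale (SE 0.14, limma adjusted p = 6.95e-06), with no overlap between vectors. Pax3 went from 381 and 401 to 649 and 543 and rose by 0.60 (SE 0.14, limma adjusted p = 0.0128), a call lost without EV replicate a (0.56, limma adjusted p = 0.115), EV replicate b (0.64, 0.0716) or Dnmt1 replicate 1 (0.47, 0.216). Nes went from 4531 and 4370.5 to 6384 and 6185, a log2 fold change of 0.50 that passed the adjusted p (limma, 8.67e-05) but not the fold threshold. Pax7 (95.8 and 80.6 with Dnmt1) and Sox21 (448 and 378) had log2 fold changes of 0.86 and 0.47 (limma adjusted p = 0.169 and 0.111). Sox21 passed without EV replicate b, at 0.79 (limma adjusted p = 0.0216). The other 5 genes lay between -0.13 and 0.09, and the median of the 10 genes was 0.28.

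In Tet3m/m cells the Dnmt1 vector went with higher Zic1, Nes and Pax3, 3 of the 10 genes, where 2.46% of all genes were called (1.78% higher, 0.681% lower). Zic1 went from 64.0 and 70.3 to 229 and 263 normalized counts and rose by 1.86 (SE 0.14, limma adjusted p = 1.07e-08). Nes went from 897 and 986 to 1632 and 1772 and rose by 0.85 (SE 0.06, limma adjusted p = 1.05e-08), and Pax3 from 96.9 and 109 to 169.8 and 181, a rise of 0.76 (SE 0.14, limma adjusted p = 0.000934). With the Dnmt1 vector all 3 stayed below their values in Tet3+/+ cells with EV. Sox1 (1351 and 1203 normalized counts), Meis2 (3916 and 4069) and Meis1 (3134 and 2827) passed the adjusted p below the fold threshold, at 0.49, 0.46 and 0.27 (limma adjusted p = 0.00418, 3.94e-06 and 0.00187). Pax6 (281 and 274) and Pax7 (12.5 and 20.8) had log2 fold changes of 0.05 and -0.06, and Irx3 and Sox21 of 0.17 and 0.06. The median of the 10 genes was 0.37.

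In Tet3-/- cells limma called 0 of the 10 genes, where 3.53% of all genes were called (2.51% higher, 1.02% lower), and edgeR and DESeq2 also called 0. At an unadjusted p under 0.05 stood 8 of the 10 with each of the 3 tools, again without the share of all genes. Zic1, which had risen in the other genotypes, went from 1004 and 1141 to 942 and 714 normalized counts (-0.38, SE 0.14, limma adjusted p = 0.0737). Pax7 went from 94.2 and 83.6 to 62.7 and 40.5 (-0.80, SE 0.35, limma adjusted p = 0.147). The adjusted p was passed below the fold threshold by Nes (15014 and 17230.4 normalized counts, 0.40), Irx3 (-0.40), Sox1 (-0.37), Pax6 (-0.37), Meis1 (-0.26) and Meis2 (-0.25). In these cells 8 of 12 pluripotency markers rose (median 0.62), and their sum went from 7149 and 7848 to 10967 and 11249.8 normalized counts. The part of that change in the values of the 10 genes was not tested.

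**Figure D4:**
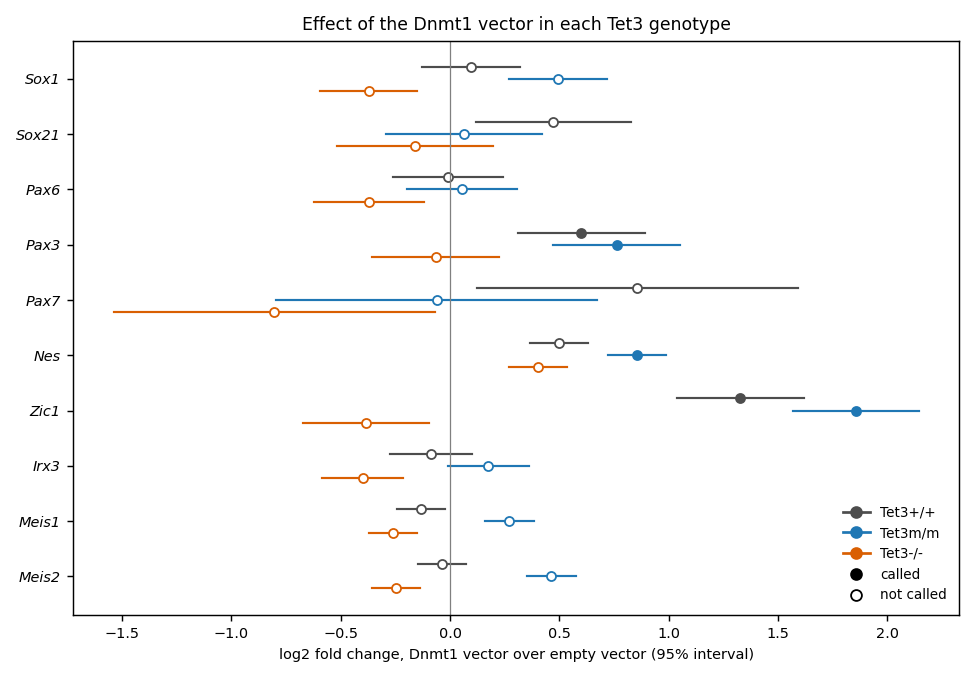
Log2 fold change of each of the 10 genes with the Dnmt1 vector over empty vector, by genotype, with limma's 95% intervals. Filled points are called (adjusted p under 0.05 and fold above 1.5) and open points are not. Zic1 lies at 1.33 in Tet3+/+, 1.86 in Tet3m/m and -0.38 in Tet3-/- cells.

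Tested as a difference between genotypes, the effect of the Dnmt1 vector was lower in Tet3-/- than in Tet3+/+ cells for Zic1, Pax7 and Pax3, 3 of the 10 genes, where 3.99% of all genes were called (2.66% higher, 1.33% lower). For Zic1 the difference of log2 fold changes was -1.71 (SE 0.20, limma adjusted p = 8.89e-06) and was called whichever sample was left out. For Pax7 it was -1.66 (SE 0.50, limma adjusted p = 0.0385) and for Pax3 -0.67 (SE 0.20, limma adjusted p = 0.0350). Pax7 lost its call without any 1 of EV Tet3+/+ replicate a (limma adjusted p = 0.0616), EV Tet3+/+ replicate b (0.144), EV Tet3-/- replicate 1 (0.115) or 2 (0.0840), Dnmt1 vector Tet3+/+ replicate 1 (0.149) or 2 (0.0733), and Dnmt1 vector Tet3-/- replicate 2 (0.161). Pax3 lost its call without EV Tet3+/+ replicate a (0.120) or b (0.0756), EV Tet3-/- replicate 1 (0.0950) or 2 (0.0818), Dnmt1 vector Tet3+/+ replicate 1 (0.192) or Dnmt1 vector Tet3-/- replicate 2 (0.0799). Sox21 gained a call without EV Tet3+/+ replicate b (-0.95, limma adjusted p = 0.0156) or EV Tet3-/- replicate 2 (-0.86, limma adjusted p = 0.0483), and Sox1 without Dnmt1 vector Tet3-/- replicate 1 (-0.66, limma adjusted p = 0.00169).

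Between Tet3m/m and Tet3+/+ cells limma called no difference in the vector's effect among the 10 genes (0, with 0.604% of all genes called, 0.521% higher and 0.0831% lower), nor did edgeR (0) or DESeq2 (0). At an unadjusted p under 0.05 stood 5 genes with limma, also given without the share of all genes at that cutoff. Meis1 (0.40, SE 0.08) and Meis2 (0.50, SE 0.07) passed the adjusted p below the fold threshold (limma, 0.00567 and 0.000647), and Meis2 was called without EV Tet3m/m replicate 1 (0.59, limma adjusted p = 0.000178). For Zic1 the difference was 0.53 (95% interval 0.12 to 0.94, limma adjusted p = 0.267), and for Nes 0.36 (95% interval 0.17 to 0.54, limma adjusted p = 0.0525).

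Some genes of the fixed lists of relatives were called with the Dnmt1 vector. Over all genes, 1.17% were called in Tet3+/+, 2.46% in Tet3m/m and 3.53% in Tet3-/- cells. The share called within the lists is not given here. In Tet3+/+ cells Zic2 rose (0.62, limma adjusted p = 7.64e-05) and the regional factor Lmx1a fell (-0.89, 0.043). In Tet3m/m cells Zic4 (2.02), Sox9 (0.90), Sox5 (0.81), Cdh2 (1.24), Hes3 (3.15), Pou3f2 (2.33), Emx2 (0.74) and Msx1 (0.62) rose, and none of these lists had a fall. In Tet3-/- cells Sox18 (-1.67), Slc1a3 (-0.79), Msx1 (-0.67) and En2 (-0.66) fell, while Irx1 (0.78) and Rax (2.47) rose.

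The Tet3-CD experiment asks what adding the catalytic domain does, and with 1 library per genotype and vector it has no replicate check. Log2 ratios of normalized counts are given with 95% exact binomial counting intervals (Clopper-Pearson), which cover counting error only, and shares of genes past a 1.5-fold ratio stand in for a test. Reads of Tet3 went from 1849.9 to 5232 normalized counts in Tet3m/m, from 2069.8 to 2759 in Tet3-/- and from 4755 to 5441 in Tet3+/+ cells with the vector. The EV libraries also differed in other cell states, with sums over 12 endoderm markers of 619246 in Tet3+/+, 108469.9 in Tet3m/m and 154429.8 in Tet3-/-, no marker being at 0.

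With EV, the Tet3m/m library had 5 of the 10 genes lower and 1 higher by over 1.5-fold than the Tet3+/+ library, where 16.1% of all genes were lower and 20.2% higher. Pax7 stood at 53.4 normalized counts (50 reads) in Tet3+/+ and at 3.72 (4 reads) in Tet3m/m, a log2 ratio of -3.84 (interval -5.77 to -2.40). Zic1 had 663 and 242 (-1.45), Sox21 403 and 179 (-1.17), Pax6 518 and 255 (-1.02) and Sox1 324 and 181 (-0.84). Nes was higher, at 15200.3 against 5409.8 (1.49), and Pax3 (138 against 137) and Irx3 (773 against 716) had intervals that spanned 0. Meis1 (3584 against 4328) and Meis2 (5875 against 7398) were lower by less than 1.5-fold. The median log2 ratio of the 10 genes was -0.59, against 0.01 over all genes. The Tet3-/- library had 2 of the 10 genes higher, Irx3 at 2578 against 716 (1.85) and Pax3 at 208 against 137 (0.61), and 0 lower, where 15.4% and 11.7% of all genes were.

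**Figure D5:**
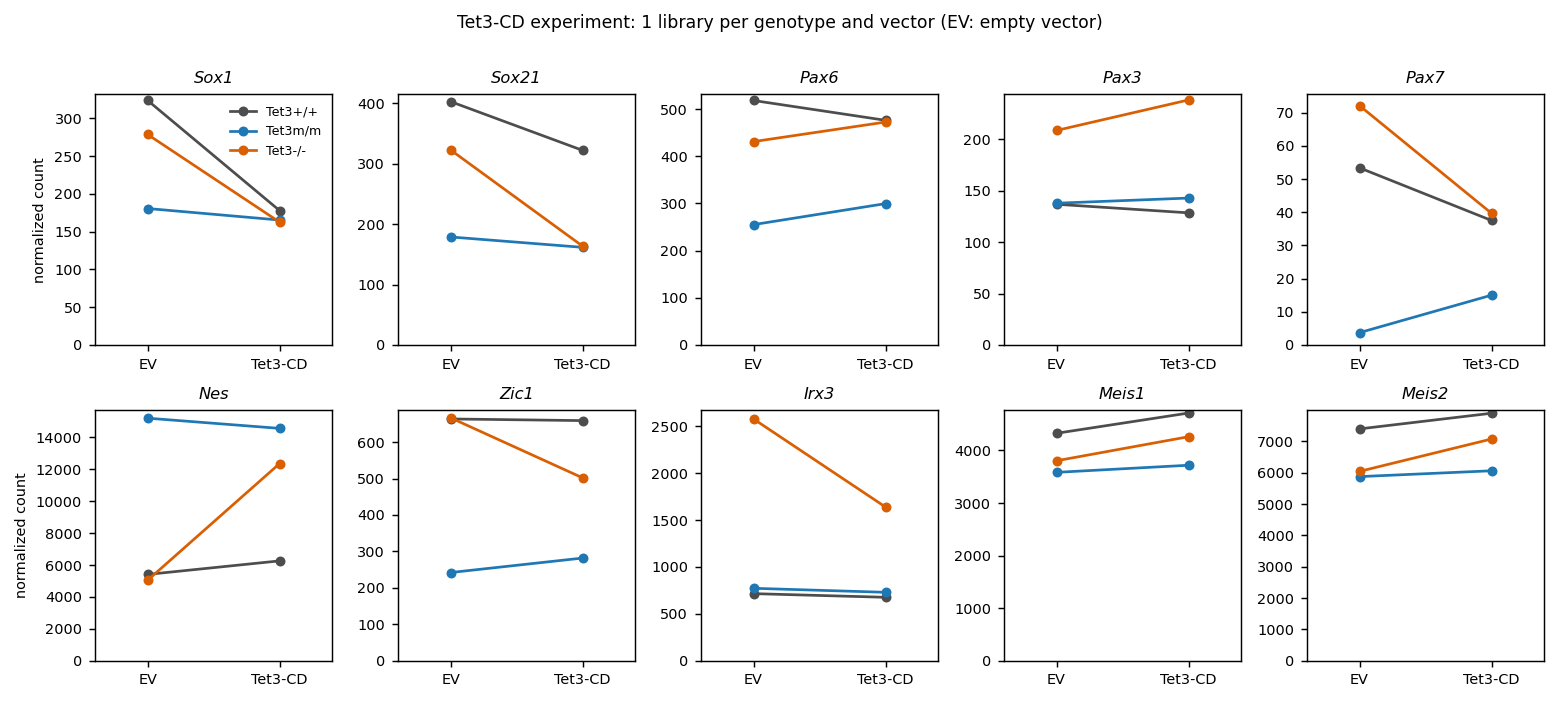
Normalized counts of the 10 genes with empty vector (EV) and with Tet3-CD in each genotype, 1 panel per gene with its own linear axis from 0. Each point is 1 library and lines join the libraries of a genotype, without replicates. Nes in Tet3-/- cells goes from 5042 to 12359, while the Tet3m/m lines of Pax6 and Zic1 stay below those of the other genotypes.

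With Tet3-CD, the Tet3m/m library kept 8 of the 10 genes within counting error of its EV library, and 1 gene passed 1.5-fold upward and 0 downward, where 4.58% and 5.53% of all genes did. That gene was Pax7, at 15.0 normalized counts (16 reads) against 3.72 (4 reads), a log2 ratio of 2.01 (interval 0.38 to 4.05). Pax6 went from 255 to 299.6 (0.23, interval -0.01 to 0.47) and Zic1 from 242 to 282 (0.22, interval -0.02 to 0.46), both short of the Tet3+/+ EV values of 518 and 663. Sox1 had 181 and 165, Sox21 179 and 162, and Nes 15200.3 and 14561 (-0.06, interval -0.09 to -0.03).

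Tet3-/- cells had larger shifts with Tet3-CD, 1 gene up and 4 down by over 1.5-fold, where 9.89% and 11.6% of all genes were. Nes went from 5042 to 12359 (log2 ratio 1.29, interval 1.25 to 1.34). Sox21 went from 323 to 163 (-0.98), Pax7 from 72.2 to 39.7 (-0.86), Sox1 from 279 to 163 (-0.78) and Irx3 from 2578 to 1639 (-0.65). Zic1 went from 667 to 502 (-0.41), and Pax6, Pax3, Meis1 and Meis2 had log2 ratios of 0.13 to 0.23. The endoderm marker sum in these libraries went from 154429.8 to 81142 and the pluripotency sum from 15757 to 9438, and their part in the values of the 10 genes was not tested. In Tet3+/+ cells Sox1 went from 324 to 178 (-0.86, interval -1.14 to -0.59), the 1 gene past 1.5-fold downward, with 0 upward, where 7.30% and 6.11% of all genes were.

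Across the 26 samples, with each experiment centred on its own samples, the 45 pairs of the 10 genes had a median Pearson correlation of 0.53 (-0.77 to 0.94), and 35 were positive. Samples share experiment, genotype and vector, so these are descriptions. Meis1 and Meis2 were most alike (r = 0.94), followed by Pax6 with Meis1 (0.89) and Pax6 with Zic1 (0.87), and Sox21 with Nes was lowest (-0.77). Centred within groups of more than 1 sample (20 samples), the median was 0.071 and 24 pairs were positive, and the named pairs stood at 0.36 (Meis1 with Meis2), -0.30 (Pax6 with Meis1), 0.51 (Pax6 with Zic1) and -0.019 (Sox21 with Nes). Among the 8 day 3 samples centred within genotype, Sox1 and Sox21 varied together (r = 0.98), as did Zic1 and Irx3 (0.97). The genes most like each of the 10 over the 26 samples, out of 16812 in all 3 tables, were Hmgb2 (0.98) for Sox1, Tagln (0.98) for Nes, Atoh8 (0.96) for Zic1, Zfp358 (0.96) for Pax6, Pcbp1 (0.95) for Pax7, Arv1 (0.95) for Pax3, Smoc2 (0.97) for Meis2, Sall2 (0.95) for Meis1, Fgfbp1 (0.91) for Irx3 and Prdm16 (0.89) for Sox21. Hmgb2, Zfp358 and Arv1 lie on chromosome 8, as does Sox1, whereas Pax6 and Pax3 lie on chromosomes 2 and 1.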

How the data were processed

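RNA of 26 of the series' 35 samples was sequenced as poly-A libraries, and the other samples were not used here. Per the study's methods, the authors trimmed reads with Trim Galore 0.6.7, aligned them with STAR 2.7.9a to mm39 (the labels list mm10), counted them per gene with featureCounts and divided them by DESeq2 size factors. The deposited values are therefore a signal, normalized counts, with 1 table per experiment that was normalized separately. Every column gave back whole reads (tolerance 0.01). Groups came from the sample labels. Columns of the empty vector Tet3+/+ samples carry no replicate number and are named a and b.

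Genes with a mean of at least 10 were tested with limma 3.58.1 (trend) on log2(value + 1), all groups of an experiment in 1 fit, with Benjamini-Hochberg adjustment over all genes tested. Fold changes are on that log2 scale, which understates changes of low genes. edgeR 4.0.16 and DESeq2 1.42.0 ran on the recovered reads as alternatives, as did other pseudocounts (0.1 and 5), a mean of at least 50 or no filter, TMM, CPM scaling, only the groups compared, chromosome medians, a replicate block and leaving out each sample. Tested on simulated data with 200 genes changed by 1.5 on the log2 scale, limma recovered 200 with 12 false calls for day 3 Tet3m/m and 200 with 16 for day 3 Tet3-/- (17915 genes each), and 200 with 15 and 199 with 17 for the same comparisons with empty vector (18055 genes each). Every simulated gene had the same dispersion, and only genes with a mean above 50 were changed. Genes that vary more between clones, such as Sox1 on day 3, were not modelled. The simulation therefore does not give the power of the tests for such genes. Transcript lengths came from GENCODE vM21 and start regions from RefSeq (GRCm38.p6), so no other coordinates are given. All 10 genes, the called genes of related lists (the 4 with the largest change where more were called) and the genes most alike in pattern are named, except some genes of the related lists that are not reported here. The genes and lists were chosen with earlier results of these data known. Intervals of single libraries cover counting error only.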

Additional observations from a re-analysis of the deposited data

Results flagged for a closer look

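The effect of the Dnmt1 vector was compared between genotypes. Between Tet3-/- and Tet3+/+ cells 3.99% of all genes were called. The difference of log2 fold changes was called for Zic1 (-1.71), Pax7 (-1.66) and Pax3 (-0.67). The Pax7 and Pax3 calls were lost when any of several single samples was left out. Between Tet3m/m and Tet3+/+ cells none of the 10 genes was called, where 0.604% of all genes were. Meis1 (0.40) and Meis2 (0.50) passed limma's adjusted p there, both below the fold threshold.

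In 4 cases every mutant sample lay on one side of the Tet3+/+ samples on day 3 and on the opposite side with empty vector in the Dnmt1 experiment, and these differences between experiments were not tested. In Tet3m/m cells Meis2 had a log2 fold change of 0.15 on day 3 and -1.47 with empty vector. In Tet3-/- cells Zic1 had -0.88 and 1.30, Pax7 -0.57 and 0.87, and Meis1 -0.28 and 0.10. None of these 4 differences was called on day 3, and Meis1 was called in neither experiment. The share of all genes with such a reversal was not counted. On day 3 alone, 18.3% to 20.8% of all genes lay wholly on a given side of Tet3+/+, by genotype and direction.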

How the results depend on the processing

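Of 2390 values of the 10 genes under other settings, 2305 kept their direction and their side of the threshold, 28 passed it, 35 lost it and 22 changed sign. The count of called genes in day 3 Tet3-/- against Tet3+/+ cells, 1 as reported, was 0 with a pseudocount of 0.1, with a mean of at least 50, with edgeR and with TMM rescaling, 3 with DESeq2 and 2 when only these groups were fitted, and the cause was not tested. Without the fold threshold the counts were 7 for empty vector Tet3-/- against Tet3+/+, 6 for the Dnmt1 vector in Tet3m/m, 6 in Tet3-/- and 2 for the difference between Tet3m/m and Tet3+/+. Over all genes, calls in day 3 Tet3-/- against Tet3+/+ cells, 115 as reported, were 64 with a pseudocount of 0.1, 223 with 5, 58 with a mean of at least 50, 67 with TMM, 267 after subtracting chromosome medians, 664 with only these groups, 917 with DESeq2 and 0 to 706 when 1 sample was left out. Fitting only the groups compared gave 1157 in place of 1744 for day 3 Tet3-/- against Tet3m/m, and 322 in place of 212 and 335 in place of 638 for the Dnmt1 vector in Tet3+/+ and Tet3-/-. Leaving out 1 sample at a time gave 2 to 4 called genes for day 3 Tet3m/m, 0 to 2 for day 3 Tet3-/-, 3 to 5 for empty vector Tet3-/-, 1 to 2 for the Dnmt1 vector in Tet3+/+, 0 to 1 for its difference in Tet3m/m and 1 to 4 for that in Tet3-/-.

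Sign changes came only from leaving out a sample, and none was in a called value. Ranges were -0.25 to 0.15 for Nes (day 3 Tet3m/m against Tet3+/+), and for day 3 Tet3-/- against Tet3m/m -1.91 to 0.0016 for Sox1, -0.35 to 0.51 for Sox21, -0.35 to 0.43 for Pax3, -0.66 to 0.017 for Irx3, -0.26 to 0.0035 for Meis1 and -0.13 to 0.0047 for Meis2. With empty vector Pax6 ran from -0.16 to 0.057 in Tet3-/-. For the Dnmt1 vector they were -0.0060 to 0.20 for Sox1, -0.043 to 0.023 for Pax6 and -0.18 to 0.0073 for Irx3 in Tet3+/+, -0.15 to 0.26 for Pax6 and -0.41 to 0.28 for Pax7 in Tet3m/m, and -0.39 to 0.064 for Sox21 in Tet3-/-. For its difference they were -0.14 to 0.27 for Pax6 (Tet3m/m) and -0.19 to 0.0060 for Nes (Tet3-/-).

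The highest level per kilobase in day 3 Tet3+/+ cells was 68.4 times the lowest, and 86.3 times with the longest transcript. The median correlation between the 10 genes was 0.53, and 0.071 within groups. With the replicate block the counts were 4, 1 and 2 on day 3, and 9 for Tet3-/- against Tet3m/m with empty vector, 3 for the Dnmt1 vector in Tet3m/m and 0 in Tet3-/-, which were also 9, 3 and 0 without the block on the same 10 samples, a fit added after seeing the data. Deviations of same-numbered samples from their group means had correlations of -0.098 to 0.082. This cannot decide whether the numbers pair samples, because in a group of 2 the deviations mirror each other. No paired analysis was possible because of missing replicate numbers for comparisons with empty vector Tet3+/+ samples, and in the Tet3-CD experiment because each group has 1 sample. Pax7, with the fewest reads, is limited most by depth.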

Other observations

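Markers of neighbouring lineages were measured in the same samples. Over 8 neural crest markers, a cell type in which Pax3 and Pax7 are also used, day 3 sums were 6979 to 7427 normalized counts in Tet3+/+, 6017 to 8003 in Tet3m/m and 8064 to 10001 in Tet3-/- samples. With empty vector in the Dnmt1 experiment they were 5363 to 5527, 3900.5 to 4078 and 7276 to 7859.9 in the same order. Of these markers limma called 2 up and 2 down in day 3 Tet3m/m cells and 2 up and 3 down in Tet3m/m cells with empty vector. Over 10 mesoderm markers of 12 listed, day 3 sums were 3268 to 3605 in Tet3+/+, 2827 to 4353 in Tet3m/m and 2902 to 3468 in Tet3-/- samples, and 3 rose in Tet3m/m cells.

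Neuron markers went in opposite directions in the Tet3m/m cells of the 2 experiments, with 7 of 9 lower on day 3 and 3 of 8 higher and 1 lower with empty vector in the Dnmt1 experiment. That difference was not tested.

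After the best match, the gene most like Sox1 over the 26 samples was Mcm5 (r = 0.95), and for Nes it was Msrb3 (0.98), for Zic1 Tfap2b (0.95), for Pax6 Fndc4 (0.96), for Pax7 Dsn1 (0.94), for Pax3 Trappc5 (0.91), for Sox21 Atp5a1 (0.88), for Irx3 Nup210 (0.86), for Meis1 Gata5 (0.94) and for Meis2 Sulf1 (0.97).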
